A study of Mus musculus with 4 samples.

Results

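The MD barcode is the 15-base tag of the retrograde virus injected into the mediodorsal thalamus (MD), and it is 1 of the 5 virus barcodes of this MERGE-seq study of the mouse ventromedial prefrontal cortex (vmPFC). It was taken from the MD column of the barcode tables of all 4 projectome libraries, and its counts were read for all 20047 annotated cells of 24788 cells listed. The mice were C57BL/6 males injected on one side at 8 weeks of age with rAAV2-retro viruses in the agranular insular cortex (AI), the dorsomedial striatum (DMS), MD, the basolateral amygdala (BLA) and the lateral hypothalamus (LH), and the prelimbic and infralimbic cortex was dissociated 6 weeks later. Each of 3 mice without sorting gave 1 library, and these are called mice 1, 2 and 3 or the 3 mice. Cells of another 3 mice were pooled and sorted for EGFP fluorescence (FAC-sorted pool), which gave the remaining library. All mice carried all 5 viruses, and no mouse without virus was analysed here. Titre and volume differed between the viruses, the promoter (a short CAG) is not specific to a cell type, and a barcode reports uptake at the injection site.

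MD is the thalamic partner of the medial prefrontal cortex, and the loop between them is known for its part in working memory and behavioural flexibility. Corticothalamic axons arise mainly from deep layers, with layer 6 cells as the largest source and layer 5 cells giving thicker axons that branch to other subcortical areas. Retrograde AAV is taken up by axon terminals and carried to the nucleus, where the barcode is transcribed in the 3′ part of the EGFP message and can be counted in the cell.

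The sequences are shown because every count below rests on telling them apart. Each is written 5′ to 3′ in lower case, with capitals at the positions where it differs from the MD barcode.
MD: gttggctgcaatcca
AI: CtGCAcCgACGCATT
DMS: gAAggcACAGaCTTT
BLA: AAGACGCCGTCGcAa
LH: TAtTCGGAGGaCGAC
The DMS barcode was closest to MD, with 10 of 15 positions different, and BLA and LH were farthest, with 13. With up to 2 mismatches allowed, an MD read cannot be taken for another barcode. MD held 8 G or C bases of 15, or 53.3%.

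Between 97.1% and 98.9% of the MD reads of a library matched the barcode exactly, and between 1.01% and 2.55% had 1 mismatch. The 3 most frequent forms with 1 mismatch were A11C with 64168 reads, A15C with 49447 and C14A with 22371, where the first letter is the base of the MD barcode, the number its position from the 5′ end and the last letter the base in the read. A11C made up 0.278% of the MD reads over all libraries, from 0.101% in mouse 2 to 0.541% in mouse 1. All 3 forms occurred in all 4 libraries.

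A UMI is a random tag that marks 1 cDNA molecule before PCR, so UMI counts estimate molecules. The MD barcode held 607002 UMIs in the deposited tables, 22.0% of all barcode UMIs. Its share was 19.8%, 20.2% and 21.4% in mice 1, 2 and 3 and 26.8% in the FAC-sorted pool. The libraries were not equally deep, with 2542, 4115 and 4544 projectome reads per recovered cell in the 3 mice and 14639 in the FAC-sorted pool. Of the cell barcodes of the tables, 82 of 24704 occurred in more than 1 library, and 3 of these were cell barcodes of MD-projecting neurons. Cell types and subtypes are those of the deposited annotation, and gene counts were not analysed here, so the names were not checked against marker genes.

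Among annotated cells, MD UMIs were concentrated in excitatory neurons. Annotated cells held 311200 of the 607002 MD UMIs, and the rest were in cells without a cell type. Of the MD UMIs in annotated cells, 94.0% were in the 8805 excitatory neurons. The median count per excitatory neuron was 6, 10 and 10 MD UMIs in mice 1, 2 and 3 and 46 in the FAC-sorted pool. In the 1420 inhibitory neurons, which are mostly local cells, the median was 2, 4 and 4 in the 3 mice and 19 in the 8 FAC-sorted cells. In the 9822 non-neuronal cells the median was 0 in every mouse and 8 in the 73 FAC-sorted cells. Excitatory neurons thus held the highest median in each library, while the FAC-sorted pool was higher than every mouse in all 3 classes.

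Among the 6 non-neuronal types the MD counts were low. At least 2 MD UMIs, the lowest count the tables list for MD above 0, were present in 29.5% of endothelial cells, 34.1% of oligodendrocytes, 34.7% of astrocytes, 39.6% of microglia, 41.5% of oligodendrocyte precursors and 44.7% of the 85 activated microglia. The corresponding share was 75.8% in inhibitory and 94.6% in excitatory neurons. Depth moved with these shares, with a median of 22607 transcriptome UMIs in excitatory neurons, 13183.5 in inhibitory neurons and 4114 in non-neuronal cells. Per 10000 transcriptome UMIs, the MD barcode held 14.5 UMIs in excitatory neurons, 2.93 in inhibitory neurons and between 2.49 and 3.00 in the 6 non-neuronal types. Inhibitory neurons and non-neuronal cells were thus at about the same level on this scale, and excitatory neurons were above both. In the 3 mice the level was 11.3 ± 1.62 (SD, n = 3) in excitatory neurons, 2.82 ± 0.798 in inhibitory neurons and 2.73 ± 0.841 in non-neuronal cells. In the FAC-sorted pool the same levels were 24.9, 17.7 and 9.86.

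The threshold for a valid MD barcode was 114 UMIs, and a count had to exceed it. In the 9822 non-neuronal cells the count that 1 in 1000 exceeded was 71 MD UMIs here, and the other control of the study, cells without EGFP in the sorted library, was not recomputed. Non-neuronal cells were a control from which the study set its thresholds, so a low number of them above 114 was partly fixed in advance. Among the annotated cells outside the excitatory neurons, 5 were above 114. These were endothelial cells with 137 and 156 MD UMIs in mouse 3, an oligodendrocyte with 166 in mouse 1, an oligodendrocyte with 126 in mouse 2, and an inhibitory neuron with 146 in the FAC-sorted pool. The transcriptome UMIs of these 5 cells ranged from 32106 to 46031, far above the median of their types, which was 3047 in endothelial cells, 4768 in oligodendrocytes and 13183.5 in inhibitory neurons. MD made up 42.0% to 59.1% of the barcode UMIs of the 4 non-neuronal cells and 22.2% of those of the inhibitory neuron. Whether such barcodes, or those of the excitatory neurons above the threshold, hold more than 1 cell was not tested.

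A subtype was given for 8210 excitatory neurons, and the 561 of them above the threshold are called MD-projecting here. There were 72, 114 and 93 of them in mice 1, 2 and 3, or 2.95%, 5.31% and 4.39% of the neurons, and 282 in the FAC-sorted pool, or 18.7%. The label of the deposited annotation and the count above 114 UMIs disagreed in 0 of the 8210 neurons. Another 10 neurons above 114 UMIs were among the 595 excitatory neurons without a subtype. The FAC-sorted share was 14.5 percentage points above the mean of the 3 mice, with an exact one-sided permutation p = 0.25, the smallest that 1 library against 3 can give. Sequencing depth moved with this difference. Reads were then drawn at random to give every library an equal number per recovered cell of any type. Neurons with a subtype were 2440 of 8042, 2146 of 7439 and 2119 of 7239 recovered cells in the 3 mice. In the FAC-sorted pool they were 1505 of 2068, so reads per neuron were not set equal. The MD-projecting share after thinning was 2.95%, 2.94% and 2.69% in the 3 mice and 3.59% in the FAC-sorted pool.

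After this thinning the FAC-sorted share was 0.729 percentage points above the mean of the 3 mice. With the thresholds recomputed on thinned non-neuronal cells, where MD had a threshold of 57 UMIs, the share was 9.02%, 9.32% and 8.45% in the 3 mice and 12.8% in the FAC-sorted pool, a choice added after the data were seen. By the same rule the deposited counts gave an MD threshold of 71 UMIs. The FAC-sorted share was then 24.7 percentage points above the mean of the 3 mice, against 3.83 with thinned reads.

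L6-Syt6 neurons, the layer 6 subtype named for Syt6, carried most valid MD barcodes. L6-Syt6 made up 58.7% of the neurons with a subtype, 67.5% of their MD UMIs and 88.1% of the MD-projecting neurons. Of the L6-Syt6 neurons, 71 of 1426, 109 of 1354 and 88 of 1300 were MD-projecting in mice 1, 2 and 3, which is 4.98%, 8.05% and 6.77%, and 226 of 739, or 30.6%, in the FAC-sorted pool. In the other subtypes together, the share was 0.0986%, 0.631% and 0.611% in the 3 mice and 7.31% in the FAC-sorted pool. L6-Syt6 was higher within each library, by 4.88, 7.42, 6.16 and 23.3 percentage points, and the mean difference of 10.4 gave p = 0.125 by an exact two-sided sign-flip permutation test over the 4 libraries, the smallest p it can give. A lower threshold of 9 UMIs, which 1 in 100 non-neuronal cells exceeded, turned the difference to -6.85 percentage points, with L6-Syt6 lower in all 4 libraries, and without the FAC-sorted pool the mean difference was 6.15. Over all libraries 10.3% of L6-Syt6 neurons were MD-projecting, and 6.57% without the FAC-sorted pool.

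Outside L6-Syt6 there were 67 MD-projecting neurons, and 56 of them came from the FAC-sorted pool. L5-Bcl6, a layer 5 subtype, had 1 of 90, 3 of 60 and 3 of 60 neurons above the threshold in the 3 mice and 6 of 60 in the FAC-sorted pool, or 4.81% of 270 neurons in all (95% exact binomial interval, 2.59% to 8.09%). In the 3 mice the share was 3.70% ± 2.25 for L5-Bcl6 and 6.60% ± 1.54 for L6-Syt6 (SD, n = 3), and L5-Bcl6 was lower in each of them. This order depended on the threshold. With the threshold that 1 in 1000 non-neuronal cells exceeded, the means of the 3 mice were 13.3% for L5-Bcl6 and 12.2% for L6-Syt6, with thinned reads and a recomputed threshold 14.3% and 12.6%, and with the threshold that 1 in 100 exceeded 65.6% and 45.3%. L5-S100b had 0, 0 and 1.05% in the 3 mice and 10.4% in the FAC-sorted pool, 31 neurons in all.

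The remaining subtypes had few or none. L2/3-Rorb had 10 MD-projecting neurons, all FAC-sorted, where they were 9.17% of the subtype. L6-Npy had 1 in mouse 2 and 9 in the FAC-sorted pool, and L2/3-Calb1 had 1 in mouse 2 and 2 in the FAC-sorted pool. L5-Htr2c had 0 of 320 neurons, which allows a share of up to 0.938%, and this subtype had the lowest depth, with a median of 14553 transcriptome UMIs. Of the 6 subtypes other than L6-Syt6, L5-Bcl6 had the highest share in each of the 3 mice. It was 1.11%, 5.00% and 5.00%, against at most 0, 1.02% and 1.05% in the others. This rests on 0 to 3 neurons per mouse in each subtype and was not tested. Among the subtypes other than L6-Syt6 and L5-Bcl6, no order in the 3 mice is shown beyond counting error and the spread between the mice. All intervals and limits here cover counting error only.

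Over all neurons, with no threshold, the median deposited MD count of L6-Syt6 was below that of the other subtypes together in the 3 mice. In the FAC-sorted pool it was above, and the direction in the mice turned with shared UMIs resolved. Summed MD UMIs per 10000 transcriptome UMIs, in contrast, were higher in L6-Syt6 of each library. They were 10.6, 13.5 and 12.7 in the 3 mice and 30.2 in the FAC-sorted pool, against 7.62, 10.1, 11.4 and 18.3 in the others. The median was 6, 9 and 9 MD UMIs in L6-Syt6 of mice 1, 2 and 3, and 8, 13 and 15 in the other subtypes together. In the FAC-sorted pool it was 61 in L6-Syt6 and 41 in the others. The difference was -2, -4, -6 and 20 UMIs, and the exact sign-flip permutation test gave p = 1. When a UMI seen with several barcodes of a cell was kept only for the barcode with most reads, it was 2, 1, 1 and 19 UMIs, higher in L6-Syt6 of all 4 libraries, with a mean of 5.75 and an exact sign-flip permutation p = 0.125. The values by subtype that follow are deposited counts. The order of the subtypes differed between the mice and the pool. In mice 1, 2 and 3 the median was 19, 21.5 and 25 in L5-Bcl6, 11, 19 and 26 in L5-S100b, 11, 14 and 23.5 in L2/3-Rorb and 10, 17 and 19 in L6-Npy. These 4 were above L6-Syt6 in each mouse, and L2/3-Calb1, with 4, 7 and 7, and L5-Htr2c, with 2, 5 and 5, were below it. In the FAC-sorted pool L6-Syt6 came first with 61, followed by 50 in L5-S100b, 48 in L2/3-Rorb, 46 in L5-Bcl6, 34 in L6-Npy, 31.5 in L2/3-Calb1 and 25.5 in the 4 L5-Htr2c neurons.

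The deposited L6-Syt6 counts were spread to both ends. In mouse 1, 61.3% of L6-Syt6 neurons had 0 to 9 MD UMIs and 4.98% had more than 114, against 56.1% and 0.0986% of the other neurons. In mouse 3 the corresponding values were 51.2% and 6.77% for L6-Syt6 and 37.6% and 0.611% for the others. The range from 10 to 39 UMIs held 20.8%, 26.4% and 27.2% of L6-Syt6 neurons of the 3 mice and 35.1%, 40.3% and 39.8% of the others. From 40 to 114 UMIs the shares were 13.0%, 13.7% and 14.8% for L6-Syt6 and 8.68%, 15.4% and 22.0% for the others. In each mouse L6-Syt6 had the larger share in the lowest and in the highest range and the smaller share from 10 to 39 UMIs, while from 40 to 114 UMIs its share was larger in mouse 1 and smaller in mice 2 and 3.

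As a share of summed barcode UMIs, MD stood out in L6-Syt6. Cells with more barcode UMIs weigh more in these sums, so the depth of a cell does not cancel in them. MD made up 33.5%, 32.4% and 32.5% of the summed barcode UMIs of L6-Syt6 in the 3 mice and 37.2% in the FAC-sorted pool. In the other subtypes together it made up 14.3%, 15.5% and 16.5% in the 3 mice and 18.9% in the FAC-sorted pool. L6-Syt6 was higher within each library, by 19.2 percentage points in mouse 1 and 18.3 in the FAC-sorted pool, and the mean difference over the 4 libraries was 17.6, with p = 0.125 by the exact sign-flip permutation test. Under the alternatives that were run, the mean ranged from 16.8 to 30.1.

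By subtype, the MD share of barcode UMIs over all libraries was 34.4% in L6-Syt6 and 21.2% in L5-Bcl6, and it ranged from 15.7% in L2/3-Rorb to 17.7% in L5-Htr2c in the other 5. In non-neuronal cells the same share was 14.5%, 15.5% and 17.6% in the 3 mice and 25.4% in the FAC-sorted pool. All subtypes other than L6-Syt6 combined thus lay close to the non-neuronal cells in the 3 mice and below them in the FAC-sorted pool. L6-Syt6 neurons at or below 114 UMIs still had 26.5% ± 1.25 (SD, n = 3) MD in the 3 mice and 25.5% in the FAC-sorted pool. The higher share relative to the other subtypes was thus not confined to the neurons called MD-projecting. In the FAC-sorted pool, however, these L6-Syt6 neurons were at about the 25.4% of the non-neuronal cells. In L5-Bcl6 neurons at or below the threshold the share was 19.5% ± 1.87 and 19.1%.

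The strength of the MD label, taken as the deposited UMI count of a valid barcode, also differed by subtype, which was not tested. These counts include UMIs shared with other barcodes. MD-projecting L6-Syt6 neurons had medians of 151, 158 and 167 UMIs in mice 1, 2 and 3 and 196 in the FAC-sorted pool. Among neurons with a subtype the highest count was 227, 274, 286 and 611 UMIs in the same order, each in an L6-Syt6 neuron, and in mouse 1 an excitatory neuron without a subtype had 250. Cells removed for a high sum of the 5 barcodes reached 1303, 1274, 1832 and 1175 MD UMIs. This cut limits the MD count of a kept neuron, the more so the more UMIs of other barcodes it holds. Its effect on the differences between subtypes was not tested. The neuron with 611 MD UMIs held 59 AI, 185 DMS, 37 BLA and 113 LH UMIs, so that all 5 barcodes were valid in it while MD made up 60.8% of its barcode UMIs. With shared UMIs resolved it held 599 MD, 6 AI, 65 DMS, 2 BLA and 21 LH UMIs, and MD was the only barcode above its stated threshold. In the neuron with 227, MD made up 61.2%, with 28 AI, 77 DMS, 8 BLA and 31 LH UMIs, and MD was the only valid barcode.

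Outside L6-Syt6 the median of a valid MD count was 133 UMIs, over 67 neurons, against 172 over 494 in L6-Syt6. The mean of the medians of the 3 mice was 131.7 against 158.7 UMIs, where the former rests on 1, 5 and 5 neurons. In the FAC-sorted pool, which held 56 of the 67 neurons, the medians were 135 and 196. By subtype the median pooled over libraries was 138 in L5-Bcl6 and in L2/3-Calb1, 137 in L6-Npy, 133 in L5-S100b and 131.5 in L2/3-Rorb. Of these 67 neurons, 86.6% were within 1.5 times the threshold, and 49.4% of the L6-Syt6 neurons were. All 51 neurons with 300 or more MD UMIs were L6-Syt6. They all came from the FAC-sorted pool, since the highest counts in the mice were 227, 274 and 286 UMIs. From there down, L6-Syt6 was 97.7% of 128 neurons with 200 to 299 UMIs, 93.1% of 159 with 150 to 199 and 76.2% of 223 with 115 to 149. These shares pool libraries of unlike depth. Just inside the threshold, 64 neurons had 115 to 124 UMIs and 70.3% of them were L6-Syt6, and just outside, 65 neurons had 105 to 114 and 69.2% were.

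MD was the highest of the 5 barcodes in 92.5% of MD-projecting L6-Syt6 neurons and in 10 of 13 L5-Bcl6 neurons. It was the highest in 1 of 10 L6-Npy neurons and in none of the 31 L5-S100b, 10 L2/3-Rorb and 3 L2/3-Calb1 neurons. The median MD share of a neuron's own barcode UMIs was 52.3% in L6-Syt6, 39.5% in L5-Bcl6, and between 16.5% and 20.8% in the other 4 subtypes. In those 4, a valid MD count was accompanied by a median of 556 to 676 UMIs of the other barcodes, against 176 in L6-Syt6 and 245 in L5-Bcl6. The values of those 4 rest on the FAC-sorted pool, which held all but 4 of their neurons. In the mice the 1 L6-Npy neuron had 37.8% MD and 239 UMIs of the other barcodes, the 2 L5-S100b neurons had medians of 29.6% and 320.5, and the 1 L2/3-Calb1 neuron had 316 UMIs of the other barcodes. In all neurons outside L6-Syt6, MD made up 14.3% to 18.9% of the barcode UMIs of a library.

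The reads show how the MD molecules were seen. In MD-projecting L6-Syt6 neurons an MD UMI had a mean of 54.7, 79.7 and 76.0 reads in the 3 mice and 82.6 in the FAC-sorted pool, and the median was 1 read in each. In non-neuronal cells the mean was 10.7, 9.08, 10.3 and 3.16 reads. A UMI seen with several barcodes of 1 cell is counted for each barcode in the tables, although 1 molecule carries 1 barcode. Among all MD UMIs, 53.2%, 54.0% and 57.1% in the 3 mice and 35.4% in the FAC-sorted pool were shared in this way. DMS was the most frequent partner of a shared MD UMI in each library, with 33.5% to 55.8% of the MD UMIs, followed by LH with 26.4% to 34.9%.

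The shared UMIs were not alike in all neurons. In MD-projecting L6-Syt6 neurons, 30.7%, 32.1%, 33.4% and 22.7% of the MD UMIs were shared, and of these 93.7%, 91.3%, 91.0% and 82.6% had no other barcode with more reads than MD. In MD-projecting neurons of the other subtypes, 38.8%, 42.7%, 40.3% and 55.0% were shared in the same order, and of these 68.5%, 62.2%, 63.8% and 15.9% had no other barcode with more. In these subtypes the 3 mice thus had most shared UMIs with no more reads in another barcode, from 1, 5 and 5 neurons, and the FAC-sorted pool, with 56 neurons, had few. When each shared UMI was kept only for the barcode that held most of its reads and ties were dropped, 455 L6-Syt6 neurons were above 114 UMIs, against 494 before, and 12 others, against 67. The 12 were 7 L5-Bcl6, 3 L5-S100b and 2 L6-Npy neurons, and the count was 0 in L2/3-Rorb and L2/3-Calb1. L6-Syt6 then made up 97.4% of 467 MD-projecting neurons. Since this assignment lowers counts by construction, the thresholds were also recomputed on it from non-neuronal cells, a choice added after the data were seen. The MD threshold was 71 UMIs, the same as by this rule on the deposited counts. On the deposited counts, 1082 neurons exceeded it and L6-Syt6 made up 76.1% of them. With shared UMIs assigned, 747 L6-Syt6 neurons and 47 others exceeded it, and L6-Syt6 made up 94.1%. The 47 were 21 L5-Bcl6, 15 L5-S100b, 6 L6-Npy, 2 L2/3-Rorb and 3 L2/3-Calb1.

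MD was the only valid barcode in 281 of the 561 neurons, or 50.1% (95% interval, 45.9% to 54.3%). For this, AI had to be at or below 28 UMIs, DMS 101, BLA 35 and LH 103. There were 67, 82 and 45 such MD-only neurons in mice 1, 2 and 3 and 87 in the FAC-sorted pool, which is 93.1%, 71.9%, 48.4% and 30.9% of the MD-projecting neurons. The share in the 3 mice was 71.1% ± 22.3 (SD, n = 3), so the mice differed widely, and it was lower in the libraries with more reads per cell. With equal reads per recovered cell of any type it was 93.1%, 87.3% and 75.4% in the 3 mice and 88.9% in the FAC-sorted pool at the stated thresholds. With the thresholds recomputed on the thinned counts it was 50.5%, 39.5%, 40.8% and 54.2%. With each shared UMI assigned by its reads it was 98.6%, 96.1%, 97.6% and 79.8%, or 89.3% over all, at the stated thresholds. With the thresholds recomputed after this assignment it was 79.2%, 73.1%, 80.3% and 32.6%, or 59.4% over all. With the lower thresholds that 1 in 1000 non-neuronal cells exceeded, it was 64.2%, 37.3%, 30.2% and 11.3%, or 27.9% over all. None of these shares, nor the partner shares and combinations below, includes the cells removed for high barcode UMIs, which have no cell type. Among those removed cells 848 were above 114 MD UMIs, and MD was the only valid barcode in 12 of the 848.

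L6-Syt6 made up 277 of the 281 MD-only neurons, or 98.6%, and the other 4 were L5-Bcl6. No MD-only neuron belonged to L6-Npy, L5-S100b, L5-Htr2c, L2/3-Rorb or L2/3-Calb1 in the deposited counts. This rests on 10, 31, 0, 10 and 3 MD-projecting neurons. The upper 95% limits of the MD-only share were 30.8% in L6-Npy and L2/3-Rorb, 11.2% in L5-S100b and 70.8% in L2/3-Calb1. With each shared UMI assigned by its reads, 1 L6-Npy neuron was MD-only. With the thresholds then recomputed, 1 L6-Npy and 1 L2/3-Calb1 neuron were. The 4 L5-Bcl6 neurons had 174 and 118 MD UMIs in mouse 3 and 144 and 115 in mouse 2, and MD made up 41.4% to 48.6% of their barcode UMIs. In the neuron with 174, the other counts were 19 for AI, 95 for DMS, 10 for BLA and 60 for LH. With shared UMIs resolved they were 4, 35, 0 and 41 beside 167 for MD. The neuron with 144 MD UMIs then held 138. Those with 118 and 115 then held 109 and 112 MD UMIs, which is below the stated MD threshold.

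Among the 280 neurons with MD and at least 1 other valid barcode (MD-collateral), L6-Syt6 made up 77.5%. MD-only neurons had more L6-Syt6 among them than MD-collateral neurons in each library, by 20.0, 6.94, 1.81 and 28.7 percentage points, where mouse 1 had 5 MD-collateral neurons. The mean of 14.4 gave p = 0.125 by the exact sign-flip permutation test. With each shared UMI assigned by its reads the difference was -1.45, -2.04 and -1.25 in the 3 mice and 15.7 in the FAC-sorted pool. With the thresholds then recomputed on non-neuronal cells it was 11.6, 5.91, 14.2 and 12.2, and with thinned reads and recomputed thresholds 19.3, 15.3, 26.5 and 27.6, again higher in MD-only neurons of each library. With thinned reads at the stated thresholds it was 20.0, 10.7, -2.33 and 0, and at 1.5 times the thresholds 0, -2.50 and 15.3 in mice 2 and 3 and the FAC-sorted pool, so the direction was not the same under all settings.

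Within L6-Syt6, MD-only neurons had a median of 151, 150 and 150 MD UMIs in the 3 mice and 159 in the FAC-sorted pool. MD-collateral L6-Syt6 neurons had 144.5, 186, 211 and 253. The difference was 6.5, -36, -61 and -94 UMIs, with MD-only lower in 3 of 4 libraries, a mean of -46.1 and an exact sign-flip permutation p = 0.25. With shared UMIs resolved, the mean difference was 3 UMIs and its direction differed between libraries. MD-only was lower in all 4 libraries with the thresholds that 1 in 1000 non-neuronal cells exceeded, with differences of -22, -47, -64.5 and -80 UMIs, and with thinned reads and recomputed thresholds, with -53, -38.5, -55 and -31.5. The direction was mixed with thinned reads at the stated thresholds, with 6.5, 13.5, -40 and 0.5 UMIs and a mean of -4.88, and with shared UMIs resolved and thresholds recomputed, with 2.5, 12.5, -16 and -17 and a mean of -4.50. With thresholds per 10000 transcriptome UMIs it was 50, 21, 0 and 20 UMIs, a mean of 22.75, with MD-only lower in no library. Without the FAC-sorted pool the mean was -30.2 UMIs.

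MD-only neurons also held other barcodes in the deposited counts. MD-only L6-Syt6 neurons had medians of 19 AI, 73 DMS, 10 BLA and 34 LH UMIs, against 3, 23, 0 and 6 in the 4040 L6-Syt6 neurons with no valid barcode. These counts include UMIs shared with MD, and with shared UMIs resolved, where counts of 1 UMI are kept, the medians of the same neurons were 3, 26, 2 and 8 UMIs in MD-only neurons and 2, 19, 1 and 4 in those with no valid barcode. In the deposited counts, 95.3% of the MD-only L6-Syt6 neurons had at least 1 other barcode above 50% of its own threshold, against 15.6% of the neurons with no valid barcode. Without the FAC-sorted pool, where the latter share was 72.6%, these were 93.2% and 9.24%. With shared UMIs resolved the shares were 26.0% and 11.2% over all libraries, 6.84% and 6.05% in the 3 mice and 67.8% and 57.0% in the FAC-sorted pool. The depth of the MD-only neurons was also higher, with a median of 28120 transcriptome UMIs against 23009.5.

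The valid partners of MD were DMS in 41.0% of the 561 neurons, AI in 36.9%, LH in 15.7% and BLA in 6.60%. In the 3 mice they were 23.8% ± 23.0 for AI, 14.2% ± 13.5 for DMS and 8.20% ± 4.08 for LH (SD, n = 3), and BLA was valid in no MD-projecting neuron of these mice. Without the FAC-sorted pool the pooled DMS share was 15.4%, the LH share 8.24% and the BLA share 0. In mouse 1, 5 of 72 MD-projecting neurons had a partner, 1 with AI and 4 with LH. The SDs for AI and DMS were about as large as the means. Within each of the 3 mice AI was above DMS, with 1.39%, 22.8% and 47.3% against 0, 15.8% and 26.9%. In the FAC-sorted pool DMS was above AI, with 66.3% against 48.2%, so the pooled order of these partners was that of the pool. LH was above both in mouse 1, with 5.56%, and below both in mice 2 and 3, with 6.14% and 12.9%. The order of the partners was not tested. With each shared UMI assigned by its reads, LH was the most frequent partner with 7.49%, DMS had 3.43%, AI 0.214% and BLA 0, and with the thresholds then recomputed LH had 24.4%, DMS 21.8% and AI 2.90%. These values also pool the libraries. At the stated thresholds MD was then the only valid barcode in 98.6%, 96.1% and 97.6% of MD-projecting neurons of the mice. In the FAC-sorted pool it was in 79.8%, so most neurons with a partner were FAC-sorted.

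In the deposited counts, all 10 combinations that contained MD held at least 10 neurons. The largest after MD alone was MD with AI and DMS, with 96 neurons, of which 65.6% were L6-Syt6, 16 were L5-S100b and 64 came from the FAC-sorted pool. MD with DMS had 51 neurons, 46 of them FAC-sorted, and 92.2% were L6-Syt6. MD with AI had 28 neurons, 25 of them in the 3 mice, and 96.4% were L6-Syt6. MD with AI, DMS and LH had 35 neurons, and MD with AI and LH, with DMS and LH, and with LH alone had 11 each.

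The MD and LH pair was the only combination with neurons in all 4 libraries besides MD alone and MD with AI, with 4, 2, 2 and 3 neurons. All 20 neurons with all 5 barcodes and all 17 with MD, AI, DMS and BLA were from the FAC-sorted pool. The median MD count was 316 UMIs in the neurons with all 5 barcodes and 142 in those with MD, AI, DMS and BLA, of which 29.4% were L6-Syt6.

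Within L6-Syt6, the MD call moved with the depth of the cell. When L6-Syt6 neurons of a library were split into 3 groups of about equal size by transcriptome UMIs, the MD-projecting share was 1.68%, 5.06% and 8.19% from the shallowest to the deepest group in mouse 1, 2.88%, 8.85% and 12.4% in mouse 2, and 2.76%, 5.56% and 12.0% in mouse 3. In the FAC-sorted pool it was 10.1%, 35.5% and 46.2%. The share was highest in the deepest group in each library.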

How the data were processed

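Projectome reads were deposited 1 per line with cell barcode, UMI and the 15 virus barcode bases. The deposited barcode tables hold raw UMI counts, made by the authors with a modified deMULTIplex v1.0.2 at up to 2 mismatches for the cells found by Cell Ranger v3.0.2 (mm10-3.0.0). An MD count of 1 UMI is listed as 0. In the joined matrix the authors set counts at or below 28 (AI), 101 (DMS), 114 (MD), 35 (BLA) and 103 (LH) UMIs to 0, and removed the cells with barcode UMIs above percentile 95 of their library. The deposited annotation gives transcriptome UMI counts, the percent of mitochondrial UMIs computed by the authors, and the cell type and subtype. Another 30 columns were not used.

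The library was the replicate, and no p-value was made from cells. Mean and SD are over the 3 unsorted mice, and the pool has no replicate. Differences within the 4 libraries were tested by an exact two-sided sign-flip permutation test, and 1 library against 3 by an exact one-sided permutation test. Intervals are Clopper-Pearson at the 95% level, and a count of 0 is given with a limit of 3 counts. Reads were recounted by Hamming distance. The recount differed in 3450 MD entries of annotated cells, each with 1 UMI in the recount. The alternatives were other thresholds, exact matches, UMIs of at least 2 reads, shared UMIs assigned to 1 barcode, thinned reads (fixed seed), the deepest 10% of neurons dropped, and libraries dropped or given equal weight. The barcode and the lists were chosen with earlier results of these data known. All cell types, subtypes and partner barcodes, combinations of at least 10 neurons and the 3 most frequent forms with 1 mismatch are named, and the single neurons described were chosen after their values were seen. On simulated data, 12 of 12 quantities were recovered. Versions were Python 3.11.15, numpy 2.4.6, pandas 2.3.3, scipy 1.17.1 and pyarrow 21.0.0.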

Additional observations from a re-analysis of the deposited data

Results flagged for a closer look

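The median MD count over all neurons, L6-Syt6 minus the other subtypes, in the deposited counts went in opposite directions in the sorted pool and the unsorted libraries. It was between -6 and -2 UMIs in the 3 mice and 20 UMIs in the FAC-sorted pool. The difference between the libraries was not tested, since the FAC-sorted pool has no replicate. Thinned to equal reads per cell, the values were -2, -3 and -4 in the 3 mice and 8 in the FAC-sorted pool. With each shared UMI assigned by its reads they were 2, 1 and 1 in the mice and 19 in the FAC-sorted pool, so the directions were then not opposite.

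The cells that were removed for high barcode counts, and therefore have no cell type, also held MD. Of 1243 such cells, 848 were above 114 MD UMIs, or 68.2%, with 211, 240 and 293 in mice 1, 2 and 3 and 104 in the FAC-sorted pool. MD was the only valid barcode in 12 of them. Among the 3498 cells that were kept but not annotated, 16 were above 114 MD UMIs, or 0.457%.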

How the results depend on the processing

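No paired analysis was possible because the unsorted and FAC-sorted libraries come from different mice and share no number that pairs them. Of the valid MD counts, 53.8% were within 1.5 times the threshold, and more than 50% of MD UMIs in each library had 1 read. Of 262 values recomputed for the main results, 7 changed direction and 85 moved by more than the spread between the mice (for BLA, which did not vary between them, the binomial interval) or, for counts, by more than 1.5 times. The other 170 kept the direction of a tested difference or moved by less than these limits, and 32 of them still differed from the value reported by more than 1.5 times. The cause of these changes was not tested beyond the construction of each alternative. Below, the shares of MD-projecting neurons with a valid AI, DMS, BLA or LH barcode are named by the barcode, and the background cells are non-neuronal cells above the MD threshold. Where a threshold was itself a percentile of the non-neuronal cells, the number of background cells was fixed by that choice.

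With thresholds that 1 in 1000 non-neuronal cells exceeded, there were 1082 MD-projecting neurons, 17.1% of L6-Syt6 neurons were among them and L6-Syt6 made up 76.1%. Their L6-Syt6 median in the 3 mice was 121 UMIs on average, DMS was at 55.0%, BLA at 59.1% and LH at 57.9%, MD-only at 27.9%, with 9 background cells. With thresholds that 1 in 100 of these cells exceeded, there were 4723 MD-projecting neurons, with 53.2% of L6-Syt6, an L6-Syt6 share of 54.3%, a difference between L6-Syt6 and the other subtypes of -6.85 percentage points, 4.83% MD-only, a median of 34 UMIs, AI at 78.6%, DMS at 90.6%, BLA at 69.2%, LH at 88.7% and 93 background cells. At 1.5 times the thresholds there were 259 neurons, with 5.19% of L6-Syt6, an L6-Syt6 share of 96.5%, 81.5% MD-only, a median of 206.5 UMIs, AI at 11.2%, DMS at 13.1%, BLA at 0, LH at 6.56% and 0 background cells. Thresholds per 10000 transcriptome UMIs gave 8.40% of L6-Syt6, 84.0% MD-only, AI at 2.22%, DMS at 5.56%, BLA at 3.33%, 9 background cells and a difference in median between MD-only and MD-collateral L6-Syt6 neurons of 22.75 UMIs in place of -46.1.

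With UMIs of at least 2 reads only, 77 neurons were MD-projecting, with 1.58% of L6-Syt6, an L6-Syt6 share of 98.7%, 77.9% MD-only, a median of 122 UMIs, AI at 1.30%, DMS at 22.1%, BLA at 0, LH at 7.79%, 39 UMIs as the count that 1 in 1000 non-neuronal cells exceeded and 0 background cells. With each shared UMI assigned by its reads, the L6-Syt6 share was 97.4%, MD-only 89.3%, AI 0.214%, DMS 3.43%, BLA 0 and LH 7.49%, and the difference in median between MD-only and MD-collateral L6-Syt6 neurons was 3 UMIs. With the thresholds then recomputed (an alternative added after the data were seen), 15.5% of L6-Syt6 neurons were MD-projecting, the L6-Syt6 share was 94.1%, the median 120.3 UMIs, AI 2.90%, DMS 21.8% and LH 24.4%, with 9 background cells. With reads thinned to equal numbers per cell there were 246 neurons, with 5.02% of L6-Syt6, an L6-Syt6 share of 98.4%, 86.6% MD-only, AI at 3.25%, DMS at 6.91%, BLA at 0, LH at 4.07%, 1 background cell and a difference in median over all neurons, L6-Syt6 minus others, of -0.25 UMIs in place of 2. With the thresholds then recomputed, also added later, the values were 14.1% of L6-Syt6, an L6-Syt6 share of 85.7%, a median of 97.8 UMIs, BLA at 21.4%, LH at 43.0%, 9 background cells and again -0.25 UMIs.

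With libraries weighted equally, 12.6% of L6-Syt6 neurons were MD-projecting, the L6-Syt6 share was 92.2%, DMS 27.2% and BLA 3.28%. Per 10000 transcriptome UMIs the difference in median over all neurons was -0.66. With 1 library left out at a time, the number of MD-projecting neurons was 279 to 489, the MD-projecting share of L6-Syt6 6.57% to 12.5%, the L6-Syt6 share 86.1% to 96.1%, the difference in median over all neurons -4 to 4.67 UMIs, DMS 15.4% to 47.4%, BLA 0 to 8.28%, LH 8.24% to 18.1% and the background cells 2 to 4. The lowest number of neurons, the lowest MD-projecting share of L6-Syt6, the highest L6-Syt6 share, the difference of -4 and the lowest DMS, BLA and LH shares were those without the FAC-sorted pool, and 2 background cells were left without mouse 3. Exact matches and the use of all excitatory neurons moved no main result by these limits or by more than 1.5 times, and without the deepest neurons the difference in median over all neurons was 0.875 UMIs in place of 2.

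The FAC-sorted share of MD-projecting neurons minus the mean of the 3 mice, 14.5 percentage points, was 24.7 and 49.7 with the thresholds that 1 in 1000 and 1 in 100 non-neuronal cells exceeded, 8.23 at 1.5 times the thresholds, 6.34 with thresholds per 10000 transcriptome UMIs, 3.48 with UMIs of at least 2 reads, and 0.729 and 3.83 with thinned reads before and after the thresholds were recomputed. The difference between L6-Syt6 and the other subtypes, 10.4, was 2.24 with UMIs of at least 2 reads and 5.16 with thinned reads at the stated thresholds. It was 6.50 at 1.5 times the thresholds and 16.8 with shared UMIs assigned and thresholds recomputed. MD-only minus MD-collateral, the L6-Syt6 share differed by 2.74 with shared UMIs assigned and by 37.9 with thresholds per 10000, in place of 14.4.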
